A study of Mus musculus with 11 samples.

Results

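The transforming growth factor beta (TGF-beta) family genes described here are 10 genes chosen by symbol: the ligand genes Tgfb1, Tgfb2, Tgfb3 and Inhba, the receptor genes Tgfbr1, Tgfbr2 and Tgfbr3, and the genes of the latency proteins Ltbp1, Ltbp2 and Ltbp3. All 10 were found among the 17181 genes of the expression table. They were measured by sequencing poly(A) RNA from 11 tumours of 4T1, an epithelial cell line from a mouse mammary carcinoma that serves as a triple-negative breast cancer model. By the design text, tumours grew subcutaneously in the flanks of NSG mice, a strain without T, B and NK cells. The title of the series calls the model syngeneic. Dosing began at a volume near 100 mm3 and lasted 12 days. Vehicle (n = 2) was sodium lactate plus corn oil with DMSO. The second group (n = 3) received OPG-Fc, 10 mg/kg by injection into the abdomen on 3 days of each week, which captures the cytokine RANKL. The third (n = 3) received palbociclib, an inhibitor of the cell cycle kinases CDK4 and CDK6, by mouth at 30 mg/kg daily, and the last (n = 3) received both drugs and is called the combination. All tumours carry the genotype label WT, ages are not given, and the labels do not say whether tumours shared an animal. In the combination group, the library names of replicates 1 and 2 contain an identical middle number. Within the OPG-Fc group, replicates 2 and 3 likewise have 1 such number in common. Whether it marks a cage or an animal is not stated, and the fits by group treated these tumours as independent. Each p-value thus reflects the spread from tumour to tumour, which may be partly technical.

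TGF-beta is made as a precursor and leaves the cell in a latent form, folded into its own propeptide. Latent TGF-beta binding proteins tether this complex to fibrillin-rich matrix, and integrins and proteases free the ligand from it. The free dimer binds the type II receptor, encoded by Tgfbr2, which activates the type I receptor kinase, encoded by Tgfbr1, and this kinase phosphorylates SMAD2 and SMAD3. In mammary tumours the pathway is known for driving matrix production by fibroblasts, for damping immune responses and for promoting invasion by tumour cells.

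Values are FPKM, fragments counted per kilobase of transcript and scaled to the mapped total of a library, so levels can be compared between genes within a tumour. FPKM summed to between 576699 (OPG-Fc replicate 1) and 864670 (combination replicate 3) per library, so differences between tumours depend in part on the scale. Converting to TPM, which sets every library to the same sum, moved the median difference of all genes in combination against OPG-Fc from -0.07 to -0.35 on the log2 scale, and in palbociclib against OPG-Fc from -0.04 to -0.19. Median-of-ratios scaling, which centres the libraries on their shared genes, moved these medians to 0.00 and 0.04. Statements that groups overlap or do not overlap refer to FPKM unless another scale is named. Vehicle replicate 2 stood apart from the other 10 tumours. Its 8 epithelial markers, among them Epcam and Krt8, summed to an FPKM of 56.4 against 2726 to 3923 elsewhere, and its 8 B cell, plasma cell and lymph node markers summed to 7722 against 7.63 to 943.7. Its 7 measured T and NK cell markers summed to 545.4 against 10.7 to 105.8. These markers go against the label of an epithelial 4T1 tumour. The B, T and NK cell markers of this library, and those of OPG-Fc replicate 2, also go against a host without these cells. The 7 T and NK cell markers were above 0 in all 11 tumours. Comparisons were therefore fitted with all 11 libraries and without vehicle replicate 2, where vehicle is a single library assumed to vary like the others. Differences between the treated groups are the same in both fits, and for the 10 genes their standard errors are wider with all 11. OPG-Fc replicate 2 held the 943.7, and palbociclib replicates 1 and 3 held skin transcripts, with 8 keratinocyte markers summing to 1396 and 1252 against 3.03 to 258.3 elsewhere.

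Ltbp3, which encodes a binding protein that is linked to latent TGF-beta, had the highest level of the 10 genes, with a median FPKM of 148.6 (range 93.2 to 175.25) over the 10 tumours other than vehicle replicate 2. Tgfb1 followed at 57.6 (40.6 to 73.4), Ltbp2 at 44.4 (25.6 to 67.7), Tgfb3 at 40.4 (32.8 to 54.1), Tgfbr2 at 32.1 (24.45 to 51.3), Inhba at 28.7 (15.6 to 54.3), Tgfbr1 at 26.2 (13.6 to 34.3) and Ltbp1 at 23.6 (13.5 to 36.9). The lowest were Tgfbr3 at 2.51 (1.42 to 5.47) and Tgfb2 at 1.36 (0.67 to 2.61). The median of Ltbp3 was above that of 96.7% of tested genes, that of Tgfb1 above 90.5% and that of Tgfb2 above 31.9%. Ltbp3 exceeded Tgfb1 in 10 of 10 tumours and Ltbp1 exceeded Tgfbr3 in 10 of 10. Between these steps neighbours overlapped: Ltbp2 was above Tgfb3 in 6 of 10 tumours, and Tgfb3 was above Tgfbr2, Tgfbr2 above Inhba and Inhba above Tgfbr1 in 7 of 10 each. Vehicle replicate 2 broke this order, with Inhba at 0.12, Ltbp1 at 3.16, Ltbp2 at 4.95, Tgfb3 at 6.35 and Ltbp3 at 7.49, while its Tgfb1 (80.8), Tgfbr2 (64.3) and Tgfbr3 (6.06) were the highest of all 11 tumours.

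**Figure D1:**
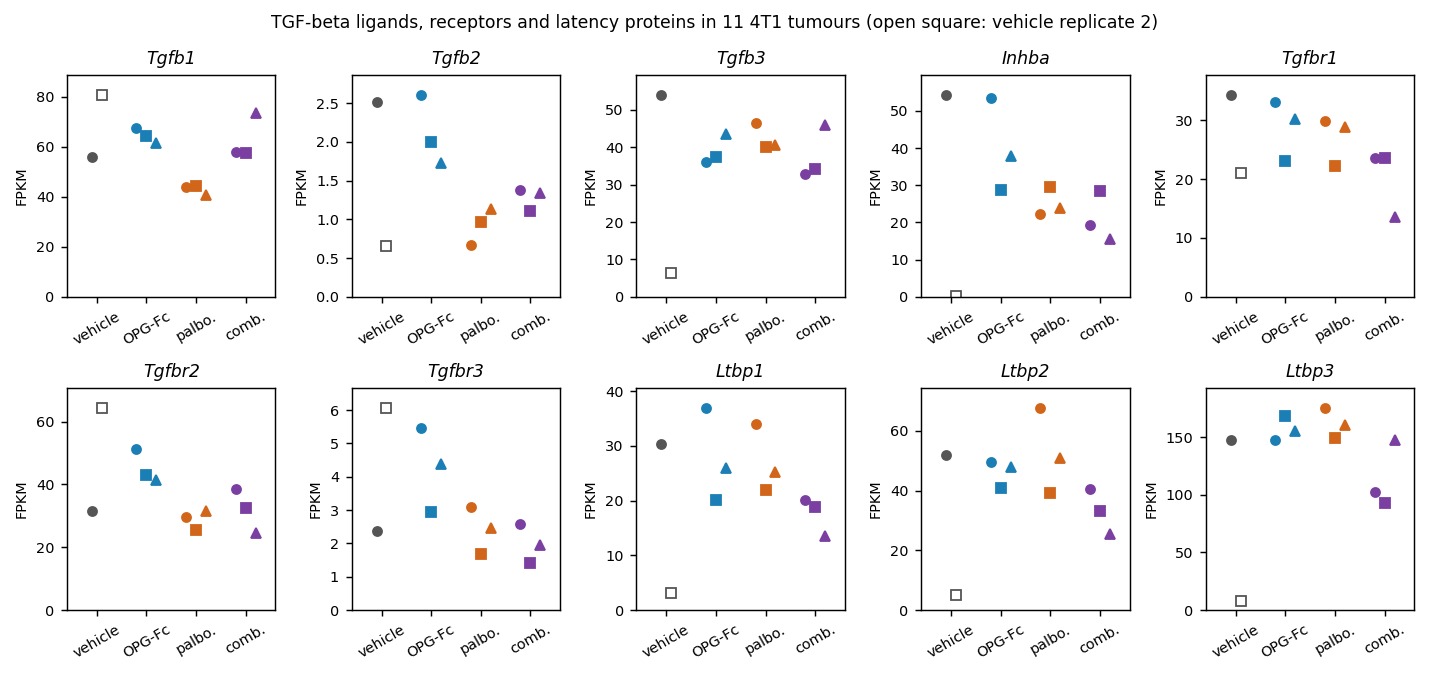
Each panel plots the FPKM of 1 gene (vertical axis, linear from 0) in the 11 tumours by treatment group. Circles, squares and triangles are replicates 1, 2 and 3, and the open square is vehicle replicate 2. Tgfb1 lies between 40.6 and 44.1 in the 3 palbociclib tumours and above 55 in the other 8, and Inhba, Tgfb3 and the 3 Ltbp genes have their lowest value in vehicle replicate 2.

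Tgfb1 was lower with palbociclib than with OPG-Fc once vehicle replicate 2 was left out. This gene encodes the isoform made by platelets, macrophages and many tumour cells. Its FPKM was 43.9, 44.1 and 40.6 with palbociclib, 67.4, 64.4 and 61.5 with OPG-Fc, 57.8, 57.4 and 73.4 with the combination, and 55.7 and 80.8 with vehicle. The 3 palbociclib tumours were below all 8 others, and the OPG-Fc and combination tumours overlapped. How many of all genes have palbociclib tumours below all 8 others was not counted. On the TPM scale the combination tumours, at 81.9, 80.1 and 84.8, were wholly below the OPG-Fc tumours, at 116.9, 99.7 and 99.1. Mean FPKM was 42.9 ± 1.95 with palbociclib, 64.4 ± 2.97 with OPG-Fc and 62.85 ± 9.1 with the combination (SD, n = 3 each). Against OPG-Fc the log2 fold change of FPKM + 1 was -0.58 ± 0.16 (SE) with all 11 libraries, which did not pass (adjusted p = 0.138, limma, Benjamini-Hochberg over 13074 genes). Leaving out vehicle replicate 2 gave -0.58 ± 0.12, which passed (adjusted p = 0.0126, limma). Of the further libraries, leaving out OPG-Fc replicate 1 (-0.54, adjusted p = 0.0526) or palbociclib replicate 3 (-0.54, adjusted p = 0.0592) ended this call, as did median-of-ratios scaling (-0.48, adjusted p = 0.0532). The combination was above palbociclib by 0.53 on the same scale, again not passing with all libraries (adjusted p = 0.65) or without vehicle replicate 2 (adjusted p = 0.0903). Combination and OPG-Fc differed by -0.04, with a 95% interval of -0.31 to 0.22 in the fit without vehicle replicate 2. By TPM this difference was -0.35 ± 0.11 (adjusted p = 0.0624, limma), against a median of -0.35 over all genes on that scale, and by median-of-ratios scaling it was 0.04 ± 0.13.

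Tgfb2, the isoform with the lowest level of the 3 TGF-beta genes, was lower with palbociclib in the fit without vehicle replicate 2. Its FPKM was 0.67, 0.96 and 1.14 with palbociclib, 1.38, 1.11 and 1.34 with the combination, 2.61, 2.0 and 1.73 with OPG-Fc, and 2.51 and 0.66 with vehicle. All 6 palbociclib-treated tumours were below the OPG-Fc tumours and vehicle replicate 1, and vehicle replicate 2 was below all of them. With vehicle replicate 2 set aside, the palbociclib-treated tumours were wholly lower in 5.15% of all genes. Palbociclib against OPG-Fc gave -0.69 ± 0.27 with all 11 libraries (adjusted p = 0.302) and -0.69 ± 0.16 without vehicle replicate 2, where it passed (adjusted p = 0.0249, limma). Averaged over the presence of OPG-Fc, palbociclib gave -0.39 ± 0.20 (adjusted p = 0.189) and, without vehicle replicate 2, -0.66 ± 0.14 (adjusted p = 0.0396, limma). The first call was lost without OPG-Fc replicate 1 (-0.58, adjusted p = 0.0928) or palbociclib replicate 1 (-0.59, adjusted p = 0.0887), and the second without any 1 of 7 of the 9 treated tumours (adjusted p of 0.0519 to 0.0876). With a level this low the pseudocount of 1 understates the fold: group means were 0.923 ± 0.237 with palbociclib and 2.11 ± 0.451 with OPG-Fc (SD, n = 3 each).

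Inhba encodes the beta A subunit of activin A, a relative of TGF-beta that signals through its own receptors to the same SMAD2 and SMAD3. Its FPKM was 22.2, 29.6 and 23.9 with palbociclib, 19.2, 28.6 and 15.6 with the combination, 53.4, 28.8 and 37.9 with OPG-Fc, and 54.3 and 0.12 with vehicle. The combination tumours were all below the OPG-Fc tumours, while palbociclib overlapped with OPG-Fc. The averaged effect of palbociclib turned with vehicle replicate 2, from 0.42 ± 0.81 (adjusted p = 0.723) with it to -0.99 ± 0.22 without it, where it passed (adjusted p = 0.0437, limma). It no longer passed without OPG-Fc replicate 1 (-0.87), OPG-Fc replicate 3 (-0.99), palbociclib replicate 1 (-0.95) or 3 (-0.97), or combination replicate 1 (-0.97), with adjusted p of 0.0597 to 0.0878. Combination against OPG-Fc was -0.89 ± 0.25 without that library and did not pass (adjusted p = 0.0673, and 0.719 with all 11 libraries). By TPM it was -1.20 ± 0.30 and passed without vehicle replicate 2 (adjusted p = 0.0353, limma), and by median-of-ratios scaling the groups overlapped.

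Tgfb3 did not separate the treated groups in FPKM. It encodes the third TGF-beta isoform, known for its part in palate and lung development. Its FPKM was 46.5, 40.1 and 40.7 with palbociclib, 36.2, 37.5 and 43.6 with OPG-Fc, 32.8, 34.1 and 46.0 with the combination, and 54.1 and 6.35 with vehicle. All 3 treated groups overlapped. Palbociclib against OPG-Fc was at 0.12 with a 95% interval of -0.21 to 0.44 without vehicle replicate 2, and combination against OPG-Fc at -0.06 (-0.39 to 0.26). By TPM the combination tumours, at 46.5, 47.6 and 53.2, were wholly below the OPG-Fc tumours, at 62.7, 58.0 and 70.2, with a difference of -0.37 ± 0.14 (adjusted p = 0.0868) beside the median of -0.35 over all genes. By median-of-ratios scaling it was 0.02 ± 0.16.

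The ratio of Tgfb1 to Tgfb3 within a library, which no scaling between libraries can change, separated the tumours by OPG-Fc apart from vehicle replicate 2. It was 1.86, 1.72 and 1.41 with OPG-Fc and 1.76, 1.68 and 1.59 with the combination, against 0.944, 1.1 and 0.998 with palbociclib and 1.03 in vehicle replicate 1. The 6 tumours that received OPG-Fc were thus above these 4, and vehicle replicate 2, at 12.7, was above all. The ratio of Tgfbr2 to Tgfbr1, the genes of the type II and type I receptors, separated the same tumours, at 1.38 to 1.86 with OPG-Fc or the combination against 0.923 to 1.14 with palbociclib or in vehicle replicate 1, and 3.07 in vehicle replicate 2. Both ratios were singled out after their values were seen, so they are given with no test. How many other pairs of genes separate the tumours in this way was not counted.

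**Figure D2:**
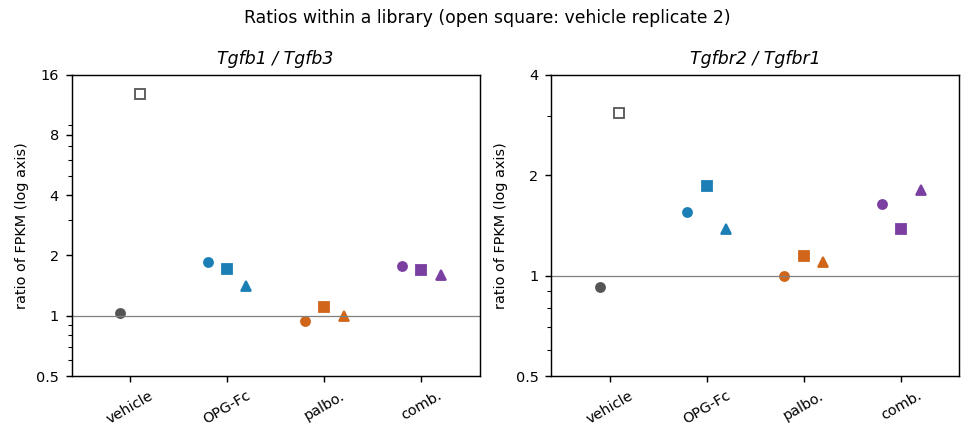
The ratio of Tgfb1 to Tgfb3 (left) and of Tgfbr2 to Tgfbr1 (right) in each tumour is plotted on a log axis by treatment group, with symbols by replicate number and an open square for vehicle replicate 2. The OPG-Fc and combination tumours lie above 1.3 in both panels, and the palbociclib tumours and vehicle replicate 1 lie below 1.2.

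Of the receptor genes, Tgfbr2 was lower with palbociclib than with OPG-Fc in the fit without vehicle replicate 2. Its FPKM was 51.3, 42.9 and 41.5 with OPG-Fc, 29.8, 25.4 and 31.65 with palbociclib, 38.4, 32.4 and 24.45 with the combination, and 31.7 and 64.3 with vehicle. The OPG-Fc tumours were above all palbociclib and combination tumours, which overlapped with each other. Palbociclib against OPG-Fc gave -0.63 ± 0.26 (adjusted p = 0.338) with all 11 libraries and -0.63 ± 0.17 without vehicle replicate 2, where it passed (adjusted p = 0.0437, limma). Leaving out any 1 of the OPG-Fc or palbociclib tumours, or combination replicate 2, ended this call (-0.69 to -0.54, adjusted p of 0.0616 to 0.15), as did TPM (-0.79, adjusted p = 0.0666) and median-of-ratios scaling (-0.53, adjusted p = 0.0529). Combination against OPG-Fc, at -0.51 ± 0.17 in the smaller fit, did not pass (adjusted p = 0.0866, and 0.355 with all 11 libraries).

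Tgfbr3 encodes betaglycan, a co-receptor that presents ligand and above all TGF-beta 2 to the type II receptor. Its FPKM was 5.47, 2.95 and 4.38 with OPG-Fc, 3.08, 1.67 and 2.45 with palbociclib, 2.57, 1.42 and 1.94 with the combination, and 2.38 and 6.06 with vehicle. Combination tumours were all below OPG-Fc tumours, at -0.81 ± 0.23 without vehicle replicate 2, and did not pass (adjusted p = 0.0683, and 0.282 with all 11 libraries, limma). It passed by TPM without vehicle replicate 2 (-1.13 ± 0.30, adjusted p = 0.0408, limma). Tgfbr1 was at 33.0, 23.1 and 30.2 with OPG-Fc, 29.9, 22.2 and 28.9 with palbociclib, 23.5, 23.6 and 13.6 with the combination, and 34.3 and 20.95 with vehicle. Its lowest value was in combination replicate 3, and palbociclib against OPG-Fc was at -0.09 with a 95% interval of -0.59 to 0.42 in the smaller fit.

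The 3 latency genes had negative differences between the combination and palbociclib alone, and 0 of 3 passed. Ltbp3 was at an FPKM of 102.6, 93.2 and 147.17 with the combination, 175.25, 149.3 and 160.9 with palbociclib, 147.23, 168.0 and 155.5 with OPG-Fc, and 147.9 and 7.49 with vehicle. The combination tumours were below the palbociclib and OPG-Fc tumours, narrowly for replicate 3. Combination against palbociclib was -0.52 ± 0.16 for Ltbp3 without vehicle replicate 2 (adjusted p = 0.178, and 0.898 with all 11 libraries, limma). Combination against OPG-Fc, at -0.48 ± 0.16 (adjusted p = 0.0944), passed by TPM (-0.79 ± 0.14, adjusted p = 0.0135), and by median-of-ratios scaling those groups overlapped.

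Ltbp1, whose protein also carries latent TGF-beta, was at 20.1, 18.8 and 13.5 with the combination, 34.0, 21.8 and 25.3 with palbociclib, 36.9, 20.1 and 26.0 with OPG-Fc, and 30.4 and 3.16 with vehicle. The combination tumours were all below the palbociclib tumours and overlapped with OPG-Fc, where replicate 2 was at 20.12 beside 20.13 in combination replicate 1, and -0.60 ± 0.24 against palbociclib did not pass (adjusted p = 0.252, and 0.828 with all 11 libraries, limma). Ltbp2 encodes a protein of the same family that binds fibrillin but not latent TGF-beta. It was at 40.5, 33.3 and 25.6 with the combination, 67.7, 39.2 and 51.0 with palbociclib, 49.6, 41.0 and 47.8 with OPG-Fc, and 51.9 and 4.95 with vehicle. Combination tumours were below the OPG-Fc tumours and overlapped with palbociclib, against which the difference was -0.64 ± 0.21 (adjusted p = 0.199, and 0.828 with all 11 libraries, limma). By median-of-ratios scaling the Ltbp2 values of the combination tumours were wholly below those with palbociclib and overlapped with those with OPG-Fc. In FPKM, palbociclib alone and OPG-Fc alone overlapped for Ltbp1 (-0.01, 95% interval -0.55 to 0.52), Ltbp2 (0.16, -0.32 to 0.63) and Ltbp3 (0.04, -0.32 to 0.41), given with 95% intervals without vehicle replicate 2; by median-of-ratios scaling the palbociclib tumours were wholly higher for Ltbp3 (0.14, adjusted p = 0.673).

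**Figure D3:**
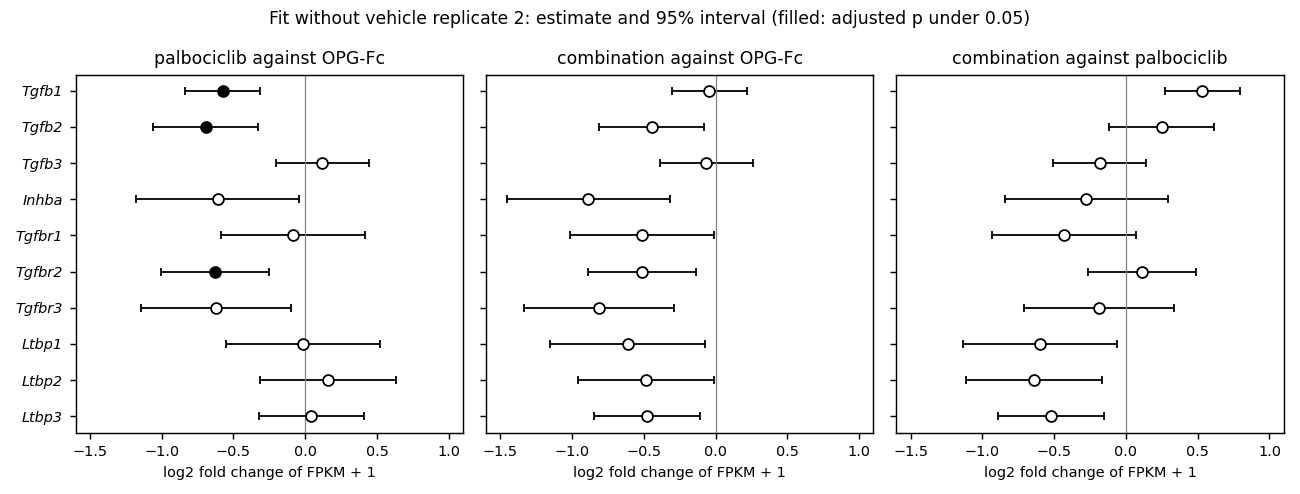
Points are log2 fold changes of FPKM + 1 for the 10 genes in 3 comparisons between treated groups of 3 tumours, from the fit without vehicle replicate 2, and bars are 95% intervals. Filled points passed at an adjusted p under 0.05: Tgfb1, Tgfb2 and Tgfbr2 in palbociclib against OPG-Fc. All 10 points lie below 0 in combination against OPG-Fc in FPKM, with Tgfb1 and Tgfb3 at -0.04 and -0.06; by median-of-ratios scaling these 2 are at 0.04 and 0.02.

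Counted over the family, 0 of the 10 genes passed in any of the 9 comparisons with all 11 libraries. In palbociclib against OPG-Fc, 0.91% of all genes passed in that fit (0.00765% higher and 0.903% lower), and 12.3% had an unadjusted p under 0.05. Without vehicle replicate 2, 3 of 10 were lower (Tgfb1, Tgfb2 and Tgfbr2) where 9.13% of all genes were lower. These are also the 3 of 10 genes whose palbociclib tumours were wholly below the OPG-Fc tumours, as were 21.8% of all genes.

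For palbociclib averaged over OPG-Fc, 0 of 10 passed where 2.83% of all genes did, and 33.9% had an unadjusted p under 0.05. Tgfb2 and Inhba, 2 of 10, were lower without vehicle replicate 2, where 2.28% of all genes were lower. The 10 differences were then all below 0, with a median of -0.36 against -0.05 over all genes.

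In combination against OPG-Fc 0 of 10 passed in either fit. Among all genes 0.0994% passed with all 11 libraries (0.00765% higher and 0.0918% lower, 15.5% with an unadjusted p under 0.05) and 4.7% without vehicle replicate 2. The 10 differences in FPKM were all below 0, with a median of -0.50 against -0.07 over all genes, while by median-of-ratios scaling Tgfb1 and Tgfb3 were above 0. In 6 of 10 genes (Tgfb2, Inhba, Tgfbr2, Tgfbr3, Ltbp2 and Ltbp3) the combination tumours were wholly below the OPG-Fc tumours, where 23.5% of all genes were. By TPM this held for 10 of 10 members and 44.7% of all genes, and by median-of-ratios scaling for 3 of 10 (Tgfb2, Tgfbr2 and Tgfbr3) and 18.5%.

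In combination against palbociclib 0 of 10 passed in either fit, as did 0% of all genes, and 6.75% and 17.7% had an unadjusted p under 0.05. Tgfb1 was wholly higher there, where 13.7% of all genes were, and Ltbp1 and Ltbp3 wholly lower, where 7.04% were. These comparisons share groups, so their values are not independent.

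Set against vehicle, several members changed sign with the control library. Palbociclib against vehicle gave 1.11 ± 0.63 for Tgfb3, 1.73 ± 1.21 for Inhba and 2.19 ± 0.88 for Ltbp3 with both vehicle tumours, and -0.35 ± 0.21, -1.09 ± 0.36 and 0.13 ± 0.23 with vehicle replicate 1 alone. OPG-Fc against vehicle gave 2.34 ± 1.21 for Inhba and 2.15 ± 0.88 for Ltbp3, and then -0.48 ± 0.36 and 0.08 ± 0.23. Tgfb1 was at -0.63 ± 0.18 and -0.37 ± 0.17 with palbociclib, at -0.06 ± 0.18 and 0.20 ± 0.17 with OPG-Fc and at -0.10 ± 0.18 and 0.16 ± 0.17 with the combination. In the combination against vehicle, Inhba went from 1.45 ± 1.21 to -1.36 ± 0.36 (adjusted p = 0.0977, limma). In these 3 comparisons 0 of 10 genes passed by limma in either fit. With all 11 libraries 0% of all genes passed, and 28.1%, 10.2% and 29.6% had an unadjusted p under 0.05 for palbociclib, OPG-Fc and the combination. Without vehicle replicate 2, 0% of genes passed for palbociclib (9.68% unadjusted). For OPG-Fc 0.00765% passed, all higher, and for the combination 0.0612% passed (0.0459% higher and 0.0153% lower).

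The effect of OPG-Fc averaged over palbociclib was 0.24 ± 0.12 for Tgfb1 (adjusted p = 0.506) and 0.37 ± 0.10 without vehicle replicate 2 (adjusted p = 0.0801, limma), and 0 of 10 genes passed, where 0% (10.5% unadjusted) and 3.46% of all genes passed. The interaction of the drugs passed for 0 of 10 members, and for 0% of all genes, in either fit, with 5.42% and 4.84% at an unadjusted p under 0.05. For Tgfb1 it was 0.59 (95% interval 0.06 to 1.13, adjusted p = 0.647) with all 11 libraries and 0.33 (-0.13 to 0.78, adjusted p = 0.951) without vehicle replicate 2.

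Tgfb1, Tgfb2, Inhba and Tgfbr2 passed in some comparison of the FPKM fit without vehicle replicate 2. Their promoters are shown so that the sequence around their starts can be read beside their values. Genes that passed only on another scale are not shown. RefSeq promoters of build GRCm38.p6, 250 bases before to 50 after the annotated start, were matched by symbol for 8 of the 10 genes; the expression values were made on GRCm39. Capitals mark matches on either strand to an AP-1 site (TGANTCA), a SMAD element (CAGACA), a GC box (GGGCGG) or a TATA box (TATAAA), each read 5′ to 3′ along the gene. The intervals are chr7:25686752-25687051 on the plus strand for Tgfb1, chr1:186705940-186706239 on the minus strand for Tgfb2, chr13:16011601-16011900 on the plus strand for Inhba and chr9:116175314-116175613 on the minus strand for Tgfbr2.
Tgfb1: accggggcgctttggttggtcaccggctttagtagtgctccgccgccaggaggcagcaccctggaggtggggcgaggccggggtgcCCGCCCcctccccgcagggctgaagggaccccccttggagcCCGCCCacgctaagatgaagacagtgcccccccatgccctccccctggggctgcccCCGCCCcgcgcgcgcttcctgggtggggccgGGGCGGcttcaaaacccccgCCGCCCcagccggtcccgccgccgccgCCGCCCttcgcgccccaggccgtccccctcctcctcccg
Tgfb2: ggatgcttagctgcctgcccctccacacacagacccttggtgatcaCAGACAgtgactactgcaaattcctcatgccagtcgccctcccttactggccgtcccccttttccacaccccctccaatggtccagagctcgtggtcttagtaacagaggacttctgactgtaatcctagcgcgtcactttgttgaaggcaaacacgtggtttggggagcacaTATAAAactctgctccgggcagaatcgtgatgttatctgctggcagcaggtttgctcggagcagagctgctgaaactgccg
Inhba: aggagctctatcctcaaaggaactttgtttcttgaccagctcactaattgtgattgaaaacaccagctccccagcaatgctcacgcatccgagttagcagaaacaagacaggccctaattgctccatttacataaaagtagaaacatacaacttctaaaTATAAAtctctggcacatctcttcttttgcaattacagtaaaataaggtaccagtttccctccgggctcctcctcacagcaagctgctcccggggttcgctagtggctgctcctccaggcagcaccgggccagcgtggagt
Tgfbr2: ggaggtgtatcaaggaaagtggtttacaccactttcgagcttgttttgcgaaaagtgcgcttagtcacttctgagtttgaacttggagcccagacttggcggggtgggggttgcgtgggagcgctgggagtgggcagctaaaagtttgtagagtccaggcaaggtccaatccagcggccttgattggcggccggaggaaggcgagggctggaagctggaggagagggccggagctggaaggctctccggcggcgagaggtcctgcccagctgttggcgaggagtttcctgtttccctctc

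The Tgfb1 window was 77% G and C and held 6 GC boxes, a motif present in 35.7% of the 32851 promoters of the table, and no TATA box. Tgfb2 held a TATA box at position -31 and a SMAD element at position -204 from the start, and Inhba a TATA box at position -91; 13.6% of promoters held a TATA box and 21% a SMAD element. The Tgfbr2 window held none of the 4 motifs. AP-1 sites, in 7.81% of promoters, were absent from these 4 windows and present in that of Ltbp3, where the match overlapped a SMAD element. The 3 genes that were lower in palbociclib than in OPG-Fc tumours shared no motif of the 4. A match is a description of letters and not of binding.

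Of 17 genes that store and activate latent TGF-beta, 16 were tested. For palbociclib averaged over OPG-Fc 4 were lower with all 11 libraries (Lrrc32, Fbn1, Mmp2 and Itgb3) and 0 higher, where 1.45% and 1.38% of all genes were. Without vehicle replicate 2, 7 were lower and 0 higher, with Ltbp4, Mmp9 and Thbs1 added, where 2.28% and 1.63% of all genes were. The median of the 16 was -0.04 and then -0.50, against -0.04 and -0.05 over all genes. For Ltbp4 the combination tumours (FPKM of 10.5 to 11.8) were below those with palbociclib alone (15.5 to 20.0). The latter overlapped with those with OPG-Fc alone (19.0 to 22.7). Lrrc32 encodes GARP, which holds latent TGF-beta on the cell surface. Its FPKM was 3.0, 2.91 and 2.3 with palbociclib, 3.26, 3.53 and 4.53 with the combination, 9.88, 9.34 and 9.18 with OPG-Fc, and 6.87 and 5.28 with vehicle. All 6 palbociclib-treated tumours were below the other 5, as were 3.72% of all genes, and the difference was -1.03 ± 0.12 (adjusted p = 0.0143, limma) with all 11 libraries and -1.11 ± 0.12 (adjusted p = 0.00481) without vehicle replicate 2.

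Fbn1 encodes fibrillin-1, the matrix scaffold to which the Ltbp proteins attach. It was at 7.45, 4.5 and 6.05 with palbociclib, 9.07, 5.83 and 8.23 with the combination, 27.0, 21.8 and 21.7 with OPG-Fc, and 15.0 and 11.8 with vehicle. The palbociclib-treated tumours were again all below the others, and Fbn1 fell by 1.28 ± 0.16 on the log2 scale (adjusted p = 0.0143, limma), or by 1.36 ± 0.17 without vehicle replicate 2 (adjusted p = 0.00734). Both genes also passed in combination against OPG-Fc, where 2 of 16 were lower with all 11 libraries, beside 0.0918% of all genes, and 7 without vehicle replicate 2, beside 3.72%. Fbn1 was at -1.51 ± 0.21 and Lrrc32 at -1.14 ± 0.16 there (adjusted p = 0.0472 for both, limma). Mmp2, a matrix protease that can release the ligand, was at -0.87 ± 0.15 (adjusted p = 0.0386) for palbociclib averaged over OPG-Fc and at -0.94 ± 0.16 (adjusted p = 0.0222) without vehicle replicate 2, and Itgb3, a subunit of an integrin that binds the latency propeptide, at -0.60 ± 0.12 (adjusted p = 0.0466, limma) and -0.64 ± 0.13 (adjusted p = 0.0347). With all 11 libraries, the averaged calls of Lrrc32 and Fbn1 were lost without any 1 OPG-Fc tumour, palbociclib replicate 1 or 3 or combination replicate 2, at adjusted p of 0.0522 to 0.0682 for Lrrc32 and 0.0518 to 0.0682 for Fbn1. Those of Mmp2 and Itgb3 were lost without these and further tumours (up to 0.123 and 0.134).

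Nrros, which encodes the myeloid anchor of latent TGF-beta, rose with OPG-Fc averaged over palbociclib by 1.29 ± 0.17 without vehicle replicate 2 (adjusted p = 0.011, limma), from 6.77 to 8.51 in the palbociclib tumours and vehicle replicate 1 to 12.3 to 26.3 in the 6 tumours given OPG-Fc. It was at 66.7 in vehicle replicate 2, and with that library the difference was 0.58 ± 0.43 (adjusted p = 0.594). Thbs1, whose thrombospondin product can activate the latent complex, was at an FPKM of 23.3 to 31.5 with the combination. It was at 46.8 to 65.3 with OPG-Fc alone, 52.7 to 55.1 with palbociclib alone and 10.2 to 62.7 with vehicle. Of the treated groups only the combination was thus low, and OPG-Fc alone overlapped with palbociclib alone. In the averaged OPG-Fc comparison Thbs1 fell by 0.59 ± 0.13 without vehicle replicate 2. With all 11 libraries it was at 0.03 ± 0.37 (adjusted p = 0.973, limma). Of all genes 3.17% were higher and 0.291% lower there without vehicle replicate 2.

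Among 18 targets and feedback genes of TGF-beta, 17 were tested and Timp3, an inhibitor of matrix proteases, was the 1 that was lower with palbociclib averaged over OPG-Fc in the fit of all 11 libraries (-1.35 ± 0.11, adjusted p = 0.00422, limma), where 1.45% of all genes were lower. Without vehicle replicate 2 it was at -1.41 ± 0.12 (adjusted p = 0.00145). Its FPKM was 6.16, 6.28 and 4.33 with palbociclib and 7.47, 7.38 and 7.35 with the combination, against 19.7 to 20.4 with OPG-Fc and 17.5 and 14.4 with vehicle. In that fit 4 of the 17 were lower and 0 higher, where 2.28% and 1.63% of all genes were, among them the collagen gene Col1a1 (-1.34 ± 0.16, adjusted p = 0.00569) and the matrix gene Postn (-0.91 ± 0.17, adjusted p = 0.0273, limma). With all 11 libraries Col1a1 was at -0.73 ± 0.37 (adjusted p = 0.183) and Postn at -0.53 ± 0.26 (adjusted p = 0.175), so vehicle replicate 2 decides both calls. The FPKM of Col1a1 was 192.7, 175.7 and 144.9 with palbociclib, 225.3, 167.1 and 162.9 with the combination, 585.9, 425.4 and 565.1 with OPG-Fc, and 384.5 and 70.4 with vehicle. Its palbociclib-treated tumours were all below the OPG-Fc tumours and vehicle replicate 1, as were those of 5.15% of all genes. Vehicle replicate 2 was below them. The median of the 17 turned from 0.32 with all 11 libraries to -0.27 without vehicle replicate 2, against -0.04 and -0.05 over all genes. In combination against OPG-Fc 1 of 17 was lower (Timp3, -1.32 ± 0.15, adjusted p = 0.0377), beside 0.0918% of all genes, and, without vehicle replicate 2, 3 were (Timp3, Col1a1 and Postn), beside 3.72%. Junb, an immediate SMAD target, was at 1.03 ± 0.33 for palbociclib averaged over OPG-Fc with all 11 libraries and did not pass (adjusted p = 0.0838, limma). Without vehicle replicate 2 it was at 0.48 ± 0.13 in that comparison.

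Of 13 SMAD signalling genes tested 0 passed for palbociclib averaged over OPG-Fc or for combination against OPG-Fc in either fit, with Ppm1a, a phosphatase that acts on SMADs, at 0.41 ± 0.11 (adjusted p = 0.0659), the adaptor gene Dab2 at -0.49 ± 0.18 (adjusted p = 0.11) and Trim33 at -0.41 ± 0.18 (adjusted p = 0.14) in the averaged comparison. Of 10 activin and inhibin genes, Fstl1, which encodes a follistatin-like secreted protein, was lower with palbociclib averaged over OPG-Fc (-0.74 ± 0.15, adjusted p = 0.0481, limma, and -0.83 ± 0.16, adjusted p = 0.0285, without vehicle replicate 2), and the type I activin receptor gene Acvr1b was at -0.38 ± 0.11 (adjusted p = 0.0701). The first Fstl1 call was lost without 8 of the 9 treated tumours in turn (adjusted p up to 0.134). In combination against OPG-Fc Fstl1 and Acvr1b were lower without vehicle replicate 2, 2 of 10 beside 3.72% of all genes, and 0 passed with it. Of 6 endothelial and co-receptor genes 0 passed for palbociclib averaged over OPG-Fc in either fit. With all 11 libraries Nrp1, a co-receptor gene, was at -0.63 ± 0.15 (adjusted p = 0.0541) and Acvrl1, the endothelial type I receptor gene, at -0.57 ± 0.15 (adjusted p = 0.0631). In combination against OPG-Fc Nrp1, 1 of the 6, was lower without vehicle replicate 2 (-0.93 ± 0.19, adjusted p = 0.032, limma) and did not pass with it (adjusted p = 0.198).

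**Figure D4:**
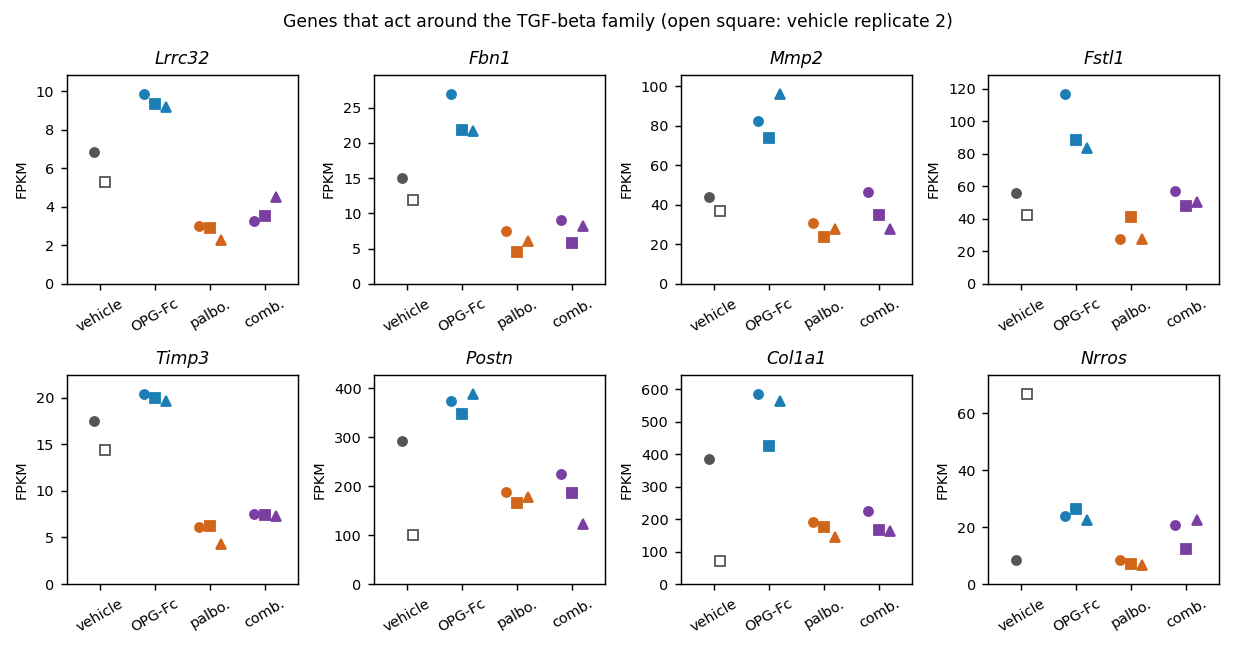
The FPKM of 8 genes that store latent TGF-beta, respond to it or act beside it is plotted by treatment group, with symbols by replicate number and an open square for vehicle replicate 2. Lrrc32, Fbn1 and Timp3 are lower in all 6 palbociclib-treated tumours than in the other 5, Col1a1 is low in vehicle replicate 2 as well, and Nrros has its highest value, 66.7, there.

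In whole tumours, fewer cells of a type and less RNA per cell cannot be told apart, and cell type markers moved between the groups. The 8 fibroblast markers summed to an FPKM of 526.9 to 698 in palbociclib tumours and 675.2 to 943 in combination tumours, against 1796 to 2658 with OPG-Fc and 697.2 and 1308 with vehicle. The 8 endothelial markers summed to 57.9 to 73.9, 68.0 to 82.3, 132.6 to 165.2 and 90.7 to 133.6 in the same order of groups. Col1a1, Col1a2 and Col3a1 had the highest fibroblast values (OPG-Fc means of 525.5, 624.4 and 792.1), and Col1a1 is also among the TGF-beta targets. Pdgfra overlapped between palbociclib (6.59 to 11.39) and OPG-Fc (11.33 to 19.48), as did Cldn5 (5.66 to 15.14 and 10.77 to 14.49). Every other fibroblast and endothelial marker was wholly lower with palbociclib alone than with OPG-Fc alone. The 8 macrophage markers summed to 655.2 to 858.2 in the palbociclib tumours, against 957.2 to 2080 for the combination. They summed to 1522 to 1642 for OPG-Fc and 999.5 to 1838 for vehicle. This sum was thus lowest in the 3 palbociclib tumours. Taken singly, Csf1r, Adgre1, Cd68, C1qb and C1qc were also lowest there, while C1qa, Mrc1 and Cd163 overlapped with at least 1 other group. The 8 adipocyte markers summed to 62.7 to 103.9 with palbociclib, 101.7 to 673.4 with the combination and 781.4 to 2478 with OPG-Fc, and to 84.3 and 1172 with vehicle. The 6 platelet markers summed to 28.7 to 48.8 with palbociclib, 53.3 to 78.5 with the combination, 34.5 to 51.7 with OPG-Fc and 38.4 and 50.8 with vehicle. The fibroblast, endothelial and macrophage lists had 0 markers at 0 in any library. Their part in the differences of the TGF-beta genes was not tested.

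**Figure D5:**
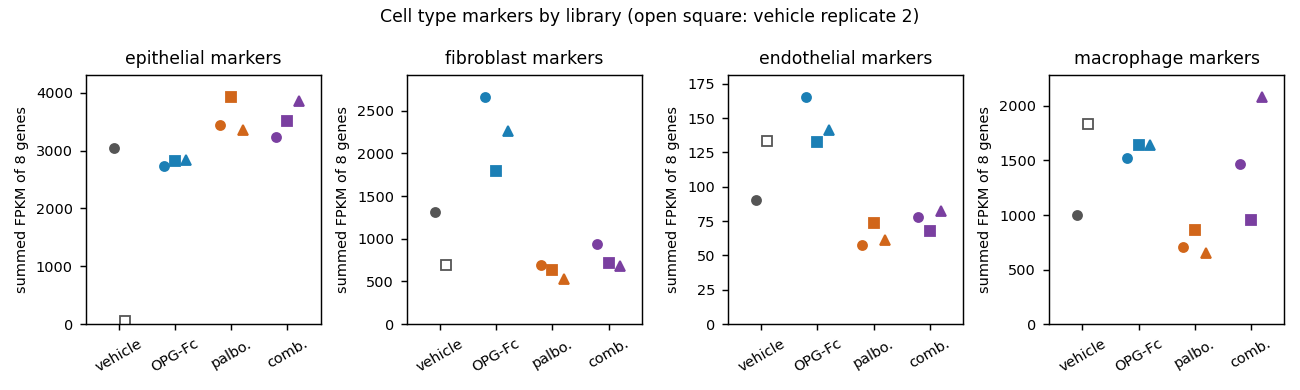
The summed FPKM of 8 markers each of epithelial cells, fibroblasts, endothelial cells and macrophages is plotted by treatment group, with symbols by replicate number and an open square for vehicle replicate 2. Fibroblast sums are highest with OPG-Fc, as are endothelial sums apart from vehicle replicate 2 (133.6 beside 132.6 in OPG-Fc replicate 2). Macrophage sums are lowest with palbociclib alone. Epithelial sums in FPKM are higher in the palbociclib and combination tumours than in all others, and that of vehicle replicate 2 is 56.4. The FPKM totals of the palbociclib and combination libraries (651306 to 864670) are also above all others (up to 646150), and the part of this scale was not tested. Krt8, Krt18 and Cldn7 are wholly higher with the combination than with OPG-Fc, while Cdh1 is wholly lower (37.7 to 75.9 against 78.0 to 89.6).

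Among themselves the members fell into patterns across the 10 tumours other than vehicle replicate 2, given here as Pearson's r of log2(FPKM + 1) and as a description, since every pair is read from the same libraries and the treatments are pooled. Tgfbr1 and Ltbp1 (r = 0.92), Ltbp1 and Ltbp2 (0.91) and Tgfbr1 and Ltbp2 (0.87) varied most alike, followed by Tgfbr2 and Tgfbr3 (0.79). Tgfb1 and Ltbp2 varied most in opposite ways (-0.55), and Tgfb1 and Tgfb3 were at -0.13. Over all tested genes, the closest to Tgfb1 were Copz2 (0.99), the chemokine gene Ccl6 (0.97) and the apolipoprotein gene Apoc2 (0.96). Those closest to Tgfb2 were Gask1b (0.94), Cybb (0.93), which encodes the phagocyte oxidase subunit, and 2510009E07Rik (0.92). Those closest to Inhba were Rhoq (0.95), Itgb3 (0.95) and Adgrf5 (0.94), and to Tgfb3 Parp11 (0.9), Slc12a5 (0.89) and Cfap74 (0.89). For the receptors they were Uba6, Btbd7 and Pja2 (all 0.99) for Tgfbr1, Bmp2k, Kctd12 and Exoc8 (all 0.98) for Tgfbr2, and, among others, Gab1 (0.98) and Srbd1 (0.94) for Tgfbr3. For the latency genes they were Maml3 (0.97), Phlpp1 (0.96) and Kdm5b (0.96) for Ltbp1, Flnc (0.98), Wdr35 (0.97) and Sdad1 (0.97) for Ltbp2, and Ptpru (0.94), Wdr78 (0.93) and Tspan9 (0.93) for Ltbp3. Several of these values rested on leaving out vehicle replicate 2. With it Sdad1 with Ltbp2 turned to -0.13, Cybb with Tgfb2 was at 0.08, Itgb3 and Rhoq with Inhba at 0.07 and 0.13, and Wdr78 with Ltbp3 at 0.33, while Ccl6 with Tgfb1 was at 0.97.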

How the data were processed

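Poly(A) RNA of 11 tumours was sequenced. The tools RSEM, Bowtie2 and HISAT and the builds GRCm39 and mm39 are listed in the submitters' processing notes; versions and roles are not given in the sources used here. The authors deposited FPKM per gene symbol in 1 table; the smallest value above 0 was 0.01 in each library, the rounding unit, so single reads are not resolved and the read depth is unknown. FPKM summed to between 576699 and 864670 per library. Values were taken as log2(FPKM + 1); the low-level filter (FPKM of 1 or more in 2 or more libraries) left 13074 of 17181 genes and kept all 10 members. All 11 libraries were fitted by group in limma 3.58.1 (R 4.3.3), letting the prior variance follow the mean level, in 9 comparisons; p-values were Benjamini-Hochberg adjusted over all tested genes, with a threshold of 0.05. A second fit left out vehicle replicate 2. The scripts were tested on simulated data. Members and lists were chosen with earlier results of these data known. All members are named; of each pathway list up to 3 genes by smallest p in 2 comparisons (palbociclib averaged over OPG-Fc, combination against OPG-Fc), plus genes named from counts of 5 or fewer or singled out after their values were seen (Itgb3, Nrros, Thbs1, Col1a1, Ltbp4, Mmp9). The 3 genes most like each member were taken by Pearson's r. Some genes that these rules pick are not reported here. Alternatives numbered 19 planned and 3 added, and each setting was run again without vehicle replicate 2. Transcript lengths and GC content came from GENCODE M21 by symbol (97.5% of tested genes). Figures used matplotlib 3.10.9 in Python 3.11.15.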

Additional observations from a re-analysis of the deposited data

How the results depend on the processing

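In the fit of 11 libraries, the count of members that passed (0 of 10 in each of the 9 comparisons) stayed at 0 under every setting except these: TPM gave 1 in palbociclib against OPG-Fc (Tgfb1) and 3 in palbociclib averaged over OPG-Fc (Tgfb1, Tgfbr2 and Tgfbr3); length and GC correction without vehicle replicate 2 gave 2 in palbociclib against OPG-Fc and 1 in OPG-Fc averaged over palbociclib. Leaving out 1 library gave 0 to 8 in palbociclib against vehicle and in palbociclib averaged over OPG-Fc, 0 to 7 in combination against vehicle, 0 to 6 in OPG-Fc against vehicle, OPG-Fc averaged over palbociclib and the interaction, and 0 to 3 in palbociclib against OPG-Fc. The upper ends came without vehicle replicate 1, when vehicle replicate 2 was the control; in palbociclib against OPG-Fc leaving out either vehicle library gave 3. For palbociclib averaged over OPG-Fc, Inhba went from 0.42 to -0.99 without vehicle replicate 2 and to 1.83 without vehicle replicate 1.

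Without vehicle replicate 2, the 3 members of palbociclib against OPG-Fc became 1 with median-of-ratios scaling, 0 without palbociclib replicates 1 and 3 (1 palbociclib library left) and 0 to 3 when a further library was left out; they were 0 without OPG-Fc replicate 1 and 1 without palbociclib replicate 1 or 3. The 2 of palbociclib averaged over OPG-Fc became 1 with no filter, an FPKM of at least 5, quantile normalization or median-of-ratios scaling, 5 with TPM, 0 with length and GC correction, 0 without palbociclib replicates 1 and 3, and 0 to 2 when a further library was left out. They were 0 without OPG-Fc replicate 1 or 3, palbociclib replicate 1 or 3 or combination replicate 1, and 1 without OPG-Fc replicate 2 or combination replicate 2. The 0 of combination against OPG-Fc became 1 with quantile normalization, 3 with TPM and 1 without combination replicate 3, a range of 0 to 1 over libraries, and the 0 of OPG-Fc averaged over palbociclib became 1 with length and GC correction. Tgfb1 in palbociclib against OPG-Fc passed in 15 of 19 such settings (-0.74 to -0.48), Tgfb2 in 12 of 18 (-1.12 to -0.43) and Tgfbr2 in 7 of 19 (-0.80 to -0.38). For palbociclib averaged over OPG-Fc, Inhba passed in 9 of 19 and Tgfb2 in 7 of 18. Timp3 passed in 21 of 22 settings of the 11-library fit, Fbn1 in 15, Lrrc32 in 14, Mmp2 in 13, Fstl1 in 9 and Itgb3 in 6. Without vehicle replicate 2, TPM also gave the most passing genes over the whole table in palbociclib averaged over OPG-Fc and combination against OPG-Fc. Smaller changes of a count are not listed above. In palbociclib against OPG-Fc without vehicle replicate 2, Tgfbr2 also lost its call with TPM and with no filter. Tgfb2 lost its call there with quantile normalization and with length and GC correction. The cause of these changes was not tested.

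The replicate number does not pair the tumours: correlations of same-numbered deviations ran from -0.41 to 0.26. With it as a replicate block, no member passed with vehicle replicate 2 kept, and with it left out the count was 0 for palbociclib averaged over OPG-Fc, 1 for combination against OPG-Fc and 2 for palbociclib against OPG-Fc, where Tgfb2 and Tgfbr2 lost their calls. Genes called over the whole table went from 119 to 14 in palbociclib against OPG-Fc, from 370 to 7 in palbociclib averaged over OPG-Fc and from 13 to 0 in combination against OPG-Fc; without vehicle replicate 2 they went from 1344 to 1016, 511 to 33 and 615 to 203. Over all settings the counts that started at 119, 370 and 13 fell as low as 0. Their highest values came in settings that left out a vehicle library. By TPM, Tgfbr1 (40.0) ranked above Inhba (39.5). Of 1971 recomputed member values 131 changed sign. Groups of 2 or 3 tumours and unknown depth limit all of these.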
